A study of Mus musculus with 12 samples.

Results

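The genes described here are 37 macrophage and dendritic cell genes read in RNA of isolated mouse islets: the MHC class II genes, complement C1q, scavenger and pattern recognition receptors, lysozymes and other lysosomal proteins, Fc receptors and their adaptors, lineage receptors and chemokines. They were chosen by name, as every probe whose gene symbol, in the intensity table or in the authors' own list of fold changes, was one of the 37 names (Emr1 is the older name of Adgre1). They have 62 of the 45281 probes on the array. The study asked how extra sorcin (gene Sri), a calcium-binding protein, in beta cells changes the islet transcriptome. Its 12 Illumina bead arrays hold 1 numbered mouse each, all male, 8 weeks old and C57BL/6. In the 6 SRI-tg10 mice a tetracycline-inducible transgene for sorcin and luciferase was present in 10 copies, and its transactivator was under the rat insulin promoter, which is active in beta cells. The 6 control mice were littermates whose genotype is not spelled out further. From the age of 4 weeks the mice ate a diet with 60% fat and were given doxycycline in the drinking water at 500 mg/L, for 4 weeks, per the design text, which speaks of both groups, whereas the treatment label names the SRI-tg10 mice alone for doxycycline. Every sample is therefore one of high-fat feeding, with no mouse on ordinary chow. The samples are called beta cells in 1 label, but the RNA came from whole islets freed by collagenase and a density gradient, so that other cells of the islet and cells carried along with it contribute.

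As background, islets hold a resident population of macrophages that sit beside the blood vessels, take up material from beta cells and present it on MHC class II, and they are the main myeloid cells of the resting islet. MHC class II molecules are pairs of an alpha and a beta chain that are assembled with the invariant chain (Cd74) and then loaded with peptide with the help of the H2-DM proteins. Dendritic cells and B cells make class II molecules as well, so class II RNA is not a measure of macrophages alone, whereas C1q chains, Adgre1 and Csf1r are typical of tissue macrophages. In RNA from whole islets, fewer cells of a type and less RNA per cell cannot be told apart.

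A probe was kept for testing if its detection p-value was under 0.05 on at least 6 of the 12 arrays. That kept 45 of the 62 member probes and 32 of the 37 genes, beside 18315 probes in all. Ccr2 (a monocyte chemokine receptor) and 1 of the 2 probes of Cybb (a subunit of the phagocyte oxidase) were detected on 1 array each. The probes of Itgam and Itgax, the integrin chains CD11b and CD11c, and of the scavenger receptor Msr1 were detected on none. Cd163 was kept with detection on 6 arrays. The 7 defining markers of macrophages were all kept. Of 11 markers of classical dendritic cells, 5 were kept (Itgae, Fscn1, Ccr7, Batf3 and Zbtb46), while Flt3, Xcr1, Clec9a and Cd209a were among those not kept. Where a gene had several kept probes, the values given are those of the probe with the highest mean level. Levels are normalized log2 intensities.

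The arrays detected between 16271 and 20094 probes each, and Control replicate 5 had the fewest. The level of Sri itself was between 9.60 and 10.09 in the 6 controls and between 14.81 and 14.96 in 5 of the SRI-tg10 mice, but 12.72 in SRI-tg10 replicate 4. That array stands apart from its group, so several results are also given without it. The sample titles carry a letter, A or B, with 3 mice of each group under each letter. The labels do not say what the letter stands for.

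None of the 45 member probes differed between SRI-tg10 and control mice at an adjusted p-value under 0.05 (limma with Benjamini-Hochberg adjustment over all kept probes), where 0.0218% of all kept probes did, 4 in number. None had an unadjusted p-value under 0.05 either, where 4.26% of all kept probes did. The mean was nevertheless higher in SRI-tg10 mice for 29 of the 32 genes and for 40 of the 45 probes (88.9%), where 49.3% of all kept probes were higher. The median difference over the 32 genes was 0.26 on the log2 scale, beside −0.0036 over all kept probes. The genes do not vary independently of each other, since the same few mice were high for most of them, as described below. For comparison, the SD between mice of 1 group of the members' mean level was 0.67. The levels of the 2 groups overlapped for every one of the 32 genes.

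**Figure D1:**
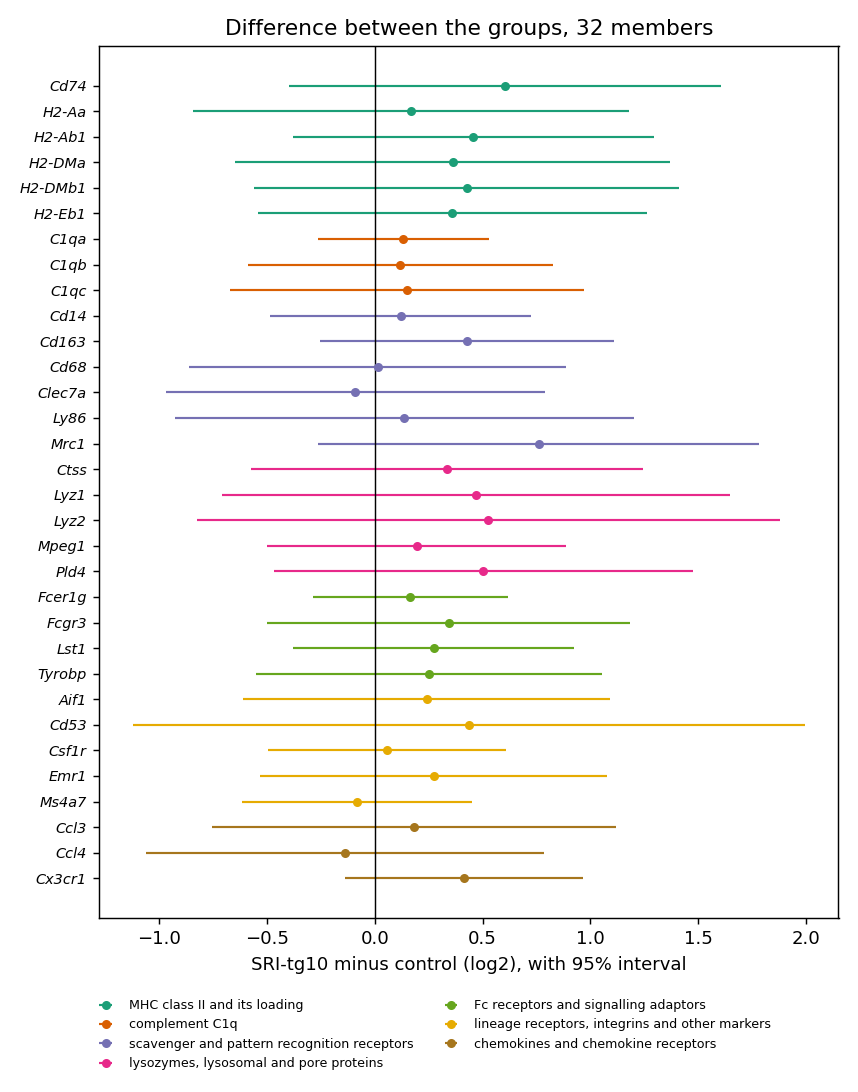
The plot shows, for each of the 32 kept member genes, the difference of SRI-tg10 minus control mice on the log2 scale (horizontal axis) with its 95% interval from limma (6 arrays a group), coloured by role. All 32 intervals include 0, and 29 of the 32 points lie to the right of it.

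The MHC class II genes were high in the same 5 of the 12 mice, 2 controls and 3 SRI-tg10 mice, and the difference between the group means did not exceed the spread between mice. All 6 had a higher mean in SRI-tg10 mice, with differences from 0.17 to 0.60 and a median of 0.39, and none passed the test. The level of Cd74, the invariant chain that guides class II molecules to the endosome, ran from 9.99 through a median of 11.52 to 12.82 in the controls and from 11.39 through 12.25 to 13.02 in the SRI-tg10 mice. Its mean was 11.60 ± 1.08 (SD, n = 6) in controls and 12.20 ± 0.74 in SRI-tg10 mice. The means differed by 0.60 ± 0.47 (SE), with a 95% interval from −0.40 to 1.61 (adjusted p = 0.922, limma), and by 0.28 without Control replicate 5. Control replicates 2 and 6 and SRI-tg10 replicates 3, 4 and 5 lay above 12.71, and the other 7 mice lay at or below 11.78, with no mouse between. The same 5 mice lay above the largest gap in the ordered levels for H2-Ab1, the beta chain of I-A, which stepped from 11.50 to 12.37. They did so too for H2-Eb1, the beta chain of I-E, from 10.61 to 11.51, for H2-DMa from 8.23 to 9.57 and for H2-DMb1 from 7.43 to 8.16. H2-Aa, the alpha chain of I-A, ran from 8.92 through 10.10 to 11.46 in controls and from 9.07 through 10.10 to 11.39 in SRI-tg10 mice. Its largest gap separated 3 mice (Control replicate 6, SRI-tg10 replicates 4 and 5) from the other 9. The H2-Aa means differed by 0.17 ± 0.47 (SE; adjusted p = 0.966), and without SRI-tg10 replicate 4 by −0.049 ± 0.47. Control replicate 5 had the lowest Cd74 (9.99) and H2-DMb1 (6.08) of all mice and, after normalization, an H2-Aa of 10.34. Before normalization its H2-Aa intensity was 759.6, with only Control replicate 3 lower (596.6). This array detected the fewest probes, so the contrast between these genes in that mouse is uncertain. The 3 kept probes of Cd74 gave differences between 0.59 and 0.64, and the 4 kept probes of H2-Ab1 between 0.40 and 0.46.

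Within the title letters the class II median difference was 0.033 among the mice with the letter A and 0.71 among those with the letter B. The difference between those values was tested for each gene as an interaction of group and letter. No member probe passed, and none had an unadjusted p under 0.05, where 2.33% of all kept probes did.

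Class II genes are known to share a set of promoter elements, the X box and, closer to the start, the Y box, which in its inverted orientation reads ATTGG. Promoter sequences of RefSeq (build GRCm38.p6, 250 bases before to 50 after the start of the gene) were matched for 27 of the 37 members. The stretches of the 3 class II genes in which TGATTGG was found are shown. Capitals mark TGATTGG (the Y box core with 2 flanking bases, reverse strand CCAATCA) and ACNGATG (the end of the X box), searched on both strands. Each stretch runs 5′ to 3′ on the gene's strand and covers 120 to 21 bases before the start.
H2-Eb1: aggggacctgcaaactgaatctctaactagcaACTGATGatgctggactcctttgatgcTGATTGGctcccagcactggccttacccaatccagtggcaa
H2-DMb1: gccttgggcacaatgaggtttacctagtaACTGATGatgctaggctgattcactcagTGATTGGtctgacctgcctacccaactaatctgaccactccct
H2-Aa: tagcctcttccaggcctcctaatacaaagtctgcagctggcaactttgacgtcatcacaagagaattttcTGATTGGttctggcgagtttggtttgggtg
The H2-Eb1 stretch is at chr17:34305747-34305846 on the plus strand, that of H2-DMb1 at chr17:34153071-34153170 on the plus strand and that of H2-Aa at chr17:34287844-34287943 on the minus strand. TGATTGG began 61, 63 and 50 bases before the start in H2-Eb1, H2-DMb1 and H2-Aa. ACTGATG began 88 bases before the start in H2-Eb1 and 91 in H2-DMb1. In H2-Aa the stretch shown has no match to ACNGATG, and the single match in its promoter was on the other strand, 232 bases before the start. Of all 32851 promoters in the table, 7.82% hold TGATTGG on either strand, 9.85% hold ACNGATG, and 3.65% hold ACNGATG together with the shorter CCAAT. Among the 27 members with a promoter, TGATTGG was found in 4, which were these 3 genes and Cd68. ACNGATG was also found in 4, which were these 3 genes and Ctss. H2-DMa, a class II gene with the same 5 highest mice, holds neither TGATTGG nor ACNGATG in its promoter sequences, and a single CCAAT on the reverse strand, 198 bases before a start. The other class II members, H2-Ab1 and Cd74, gave no match. As 10 of the 37 members had no promoter sequence to search, this may be a lack of sequence. The longer motif was chosen with the class II sequences in view.

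C1q genes, which encode the 3 chains of the recognition subunit of complement and are strongly made by tissue macrophages, had means within 0.15 of each other in the 2 groups. C1qb ranged from 8.50 through 8.75 to 10.30 in controls and from 8.70 through 9.14 to 9.95 in SRI-tg10 mice, and the difference of means was 0.12 ± 0.33 (SE; adjusted p = 0.966). Control replicates 2 and 6 and SRI-tg10 replicates 3 and 4 were the 4 high mice, above a gap from 9.17 to 9.79. C1qc showed the same 4 mice above a gap from 8.00 to 8.98, and its groups differed by 0.15 ± 0.38. C1qa varied least of all members, 2.18-fold between its highest and its lowest mouse, with levels from 8.55 to 9.49 in controls and from 9.02 to 9.67 in SRI-tg10 mice. Its difference of 0.13 ± 0.18 has the narrowest interval of the 32 genes, from −0.26 to 0.53. SRI-tg10 replicate 5, the mouse with the highest class II level (on average 1.07 above the genes' means), was not high for C1q on average (−0.060). The C1q genes differed in this mouse, which was among the 5 highest for C1qa (9.33) and C1qb (9.17, below the gap) but not for C1qc (7.91). Without SRI-tg10 replicate 3 the differences of C1qb and C1qc became −0.019 and −0.049.

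**Figure D2:**
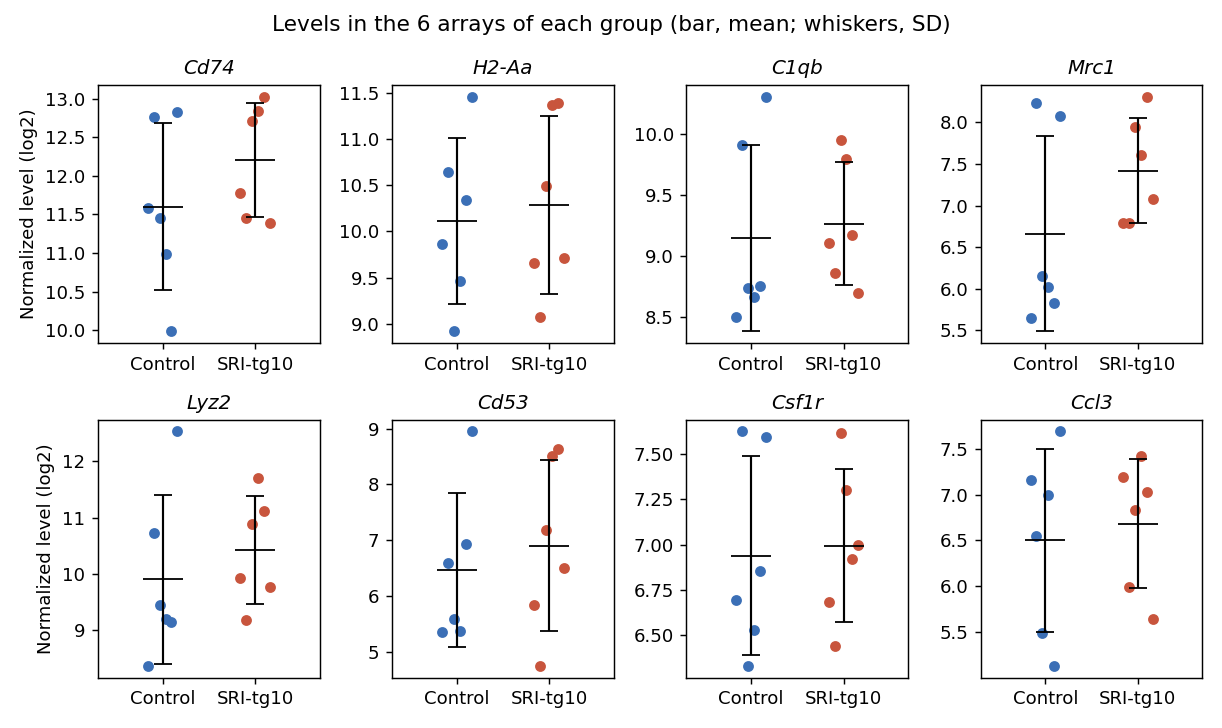
Each panel plots the normalized log2 level of 1 gene in the 6 control and 6 SRI-tg10 mice (points), with the mean (bar) and SD (whiskers) of each group. The groups overlap in all 8 panels, and Cd74 leaves a gap from 11.78 to 12.71 between 7 lower and 5 higher mice.

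Of the scavenger and pattern recognition receptors, 5 of 6 had a higher mean in SRI-tg10 mice, none passing the test, with a median difference of 0.13. Mrc1, the mannose receptor CD206, had the largest difference of all members. Its level ran from 5.65 through 6.09 to 8.24 in controls and from 6.79 through 7.34 to 8.31 in SRI-tg10 mice. Thus 4 controls lay below every SRI-tg10 mouse and Control replicates 2 and 6 lay among the highest. The difference was 0.76 ± 0.48 (SE), 1.69-fold, with an interval from −0.26 to 1.78 (adjusted p = 0.922), and it was 0.72 ± 0.52 without SRI-tg10 replicate 4. Cd163, the haemoglobin scavenger receptor, differed by 0.43 ± 0.32. It was detected in 2 of 6 controls and 4 of 6 SRI-tg10 mice, so this difference rests in part on values near background. It was highest in SRI-tg10 replicate 3 (6.72). Cd14, a co-receptor for lipopolysaccharide, ranged from 6.48 to 7.83 in controls and from 6.51 to 7.57 in SRI-tg10 mice, and Ly86 (MD-1, a partner of a Toll-like receptor homologue) from 6.95 to 9.85 and from 7.17 to 9.50. Cd68, a lysosomal glycoprotein of macrophages, differed by 0.013 ± 0.41, and by −0.22 ± 0.39 without SRI-tg10 replicate 4. Clec7a (dectin-1, a receptor for fungal glucans) had a lower mean in SRI-tg10 mice, −0.091 ± 0.41. SRI-tg10 replicate 4 was its highest mouse at 7.66, and without it the difference was −0.44 ± 0.31. The 2 kept probes of Clec7a gave differences of opposite sign, −0.091 and 0.19.

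The mean level of the 5 lysozyme and lysosomal genes spanned 2.41 log2 units over the 12 mice, beside 2.00 for class II and 1.55 for C1q. All 5 had a higher mean in SRI-tg10 mice, by 0.19 to 0.53, and none passed the test. Lyz2, the lysozyme of macrophages, ran from 8.37 through 9.33 to 12.53 in controls and from 9.18 through 10.41 to 11.71 in SRI-tg10 mice. Its highest mouse, Control replicate 6, was 18.0-fold above the lowest, Control replicate 1, which is also a control. The groups differed by 0.53 ± 0.63 (SE; interval −0.82 to 1.88, adjusted p = 0.931). Lyz1, the Paneth cell lysozyme, had its lowest and highest values in the same 2 controls, 11.29 and 14.51, and differed by 0.47 ± 0.55. Control replicate 6 was likewise the highest control for Ctss (cathepsin S, which trims the invariant chain), at 7.62 where the next control was at 6.11. Mpeg1, the pore-forming protein perforin-2, ranged from 7.98 to 9.46 in controls and from 7.78 to 9.67 in SRI-tg10 mice. Pld4, a lysosomal exonuclease, differed by 0.50 ± 0.45, and its 5 high mice (7.54 and above) were the 5 that were high for class II.

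Lyz1 and Lyz2 are near-identical neighbours, and 2 probes, 1 of them kept, are named Lyzs in the intensity table but Lyz1 in the authors' deposited table, so their signals may not be separate. The last 100 bases before their starts are shown because they show how close the copies are. Capitals mark the bases that differ between them.
Lyz1: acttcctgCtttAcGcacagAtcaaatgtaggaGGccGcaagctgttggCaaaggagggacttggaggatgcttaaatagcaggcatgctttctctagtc
Lyz2: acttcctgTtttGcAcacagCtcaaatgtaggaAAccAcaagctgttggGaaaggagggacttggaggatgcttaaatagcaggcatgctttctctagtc
Lyz1 is at chr10:117292869-117292968 and Lyz2 at chr10:117282273-117282372 (RefSeq, GRCm38.p6), both on the minus strand. They are identical at 92 of these 100 bases, and at 60 of the 150 bases further upstream when compared without gaps. The 4 kept probes of Lyz1 gave differences between the groups from 0.30 to 0.82.

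All 4 Fc receptor and adaptor genes had a higher mean in SRI-tg10 mice, by 0.17 to 0.34, and none passed the test. Fcer1g, the common gamma chain that carries the signalling motif of Fc receptors, ranged from 9.32 through 9.49 to 10.08 in controls and from 9.23 through 9.68 to 10.37 in SRI-tg10 mice. Fcgr3, a low-affinity receptor for IgG, had the same 4 high mice as C1qb, above a gap from 6.94 to 7.60. Tyrobp (DAP12, the adaptor of TREM2 and related receptors) ranged from 6.88 to 9.01 in controls and from 7.33 to 8.95 in SRI-tg10 mice, and its means differed by 0.25 ± 0.37. Lst1, a small leukocyte protein encoded in the MHC region, differed by 0.27 ± 0.30.

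The lineage genes followed, with 4 of 5 higher in SRI-tg10 mice and none past the threshold. Csf1r, the receptor for the growth factor on which tissue macrophages depend, ran from 6.33 through 6.78 to 7.62 in controls and from 6.44 through 6.96 to 7.62 in SRI-tg10 mice. Its means differed by 0.056 ± 0.26 (SE), with an interval from −0.50 to 0.61. Emr1 (Adgre1, the F4/80 antigen) ranged from 5.49 to 7.81 in controls and from 6.34 to 8.00 in SRI-tg10 mice. Control replicate 5, low for class II, was the highest control for this probe of Emr1 after normalization (7.81). By the other kept probe it was at 7.08, below Control replicates 2 (7.19) and 6 (7.44). Before normalization its intensity for the first probe, 212.8, was below those of Control replicates 1, 2, 4 and 6. That array detected the fewest probes, so its rank for Emr1 is uncertain. The 2 kept probes of Emr1 disagreed, with differences of 0.27 and −0.11. Cd53, a tetraspanin found on leukocytes in general, spread most of all members, 18.3-fold between Control replicate 6 (8.95) and SRI-tg10 replicate 2 (4.75), and its groups differed by 0.44 ± 0.72. Cd53 was detected on 11 arrays. Before normalization its intensity in SRI-tg10 replicate 2, 147.6, was below that array's median of 158.4, so the low end of this range lies near background. Aif1 (IBA1, a cytoskeletal protein of macrophages) differed by 0.24 ± 0.40, and Ms4a7, a tetraspan protein of tissue macrophages, by −0.083 ± 0.25. Without SRI-tg10 replicate 4 the differences were smaller, at 0.012 for Aif1, 0.12 for Cd53, 0.063 for Tyrobp, 0.27 for Lyz2 and 0.10 for Lst1.

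Chemokine genes did not follow the same mice as closely as most members did, and neither did some other members. Pearson r over the 12 arrays with the mean of the other members was 0.68 for Ccl4, 0.59 for Ccl3 and 0.56 for Cx3cr1. It was 0.66 for Emr1, 0.65 for C1qa and 0.64 for Cd163. Ccl4, a chemokine that attracts lymphocytes and monocytes, ran from 8.09 through 9.58 to 10.09 in controls and from 7.99 through 9.48 to 10.15 in SRI-tg10 mice. Control replicates 3 and 5 and SRI-tg10 replicates 2 and 6 were its 4 low mice, below a gap from 8.63 to 9.46. Its mean was lower in SRI-tg10 mice, by −0.14 ± 0.43 (SE; adjusted p = 0.968). The related Ccl3 ranged from 5.13 to 7.69 in controls and from 5.64 to 7.42 in SRI-tg10 mice, with the same 4 mice lowest. Cx3cr1, the fractalkine receptor, differed by 0.41 ± 0.26 and had its lowest value, 5.19, in Control replicate 5.

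The pattern that did exceed the typical probe was the spread between mice of the same group. The residual SD within groups had a median of 0.79 over the 32 members, beside 0.32 over all kept probes and 0.31 over the 5888 kept probes within 1 log2 unit of the members' median level. Of the 32 members, 26 (81.2%) lay above 0.56, the 90th percentile of all kept probes. The 6 below it were C1qa, Fcer1g, Ms4a7, Csf1r, Cx3cr1 and Cd14. Without any background correction the members' median SD was 0.49 and that of all kept probes 0.17.

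**Figure D3:**
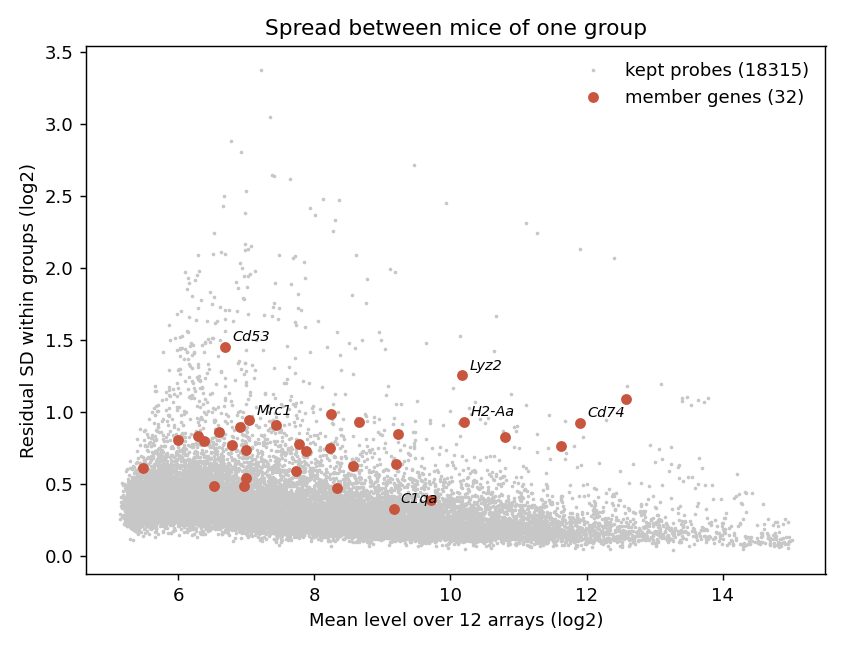
Each grey point is 1 of the 18315 kept probes and each red point 1 of the 32 member genes, by mean log2 level over the 12 arrays (horizontal axis) and residual SD within groups (vertical axis). Members lie mostly above the bulk of probes of like level, with Cd53 and Lyz2 highest and C1qa lowest.

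The mice that were high were mostly the same across genes. Control replicates 2 and 6 and SRI-tg10 replicates 3, 4 and 5 were among the 5 highest mice for 28, 31, 29, 30 and 24 of the 32 members. Each of the other 7 mice was among them for between 0 and 7. At the other end, Control replicate 1 was the lowest mouse for 10 members, Control replicate 3 for 8 and SRI-tg10 replicate 2 for 6. The 5 high mice thus comprised 2 controls and 3 SRI-tg10 mice, and both title letters. The median difference between the groups turned on which mice were in them. It was 0.26 with all 12, 0.10 without SRI-tg10 replicate 4 (23 of 31 genes higher), and 0.47 without Control replicate 6 (31 of 31 higher). Without Control replicate 5 and SRI-tg10 replicate 4 together, a choice made after seeing the data, it was 0.091, with 19 of 31 genes higher. No member probe passed the threshold in any of these fits. At an unadjusted p under 0.05 there were 2 of 44 member probes (4.55%) without Control replicate 6, where 3.79% of all kept probes were, 2 of 44 without Control replicate 2, where 7.31% were, and none in the others named.

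**Figure D4:**
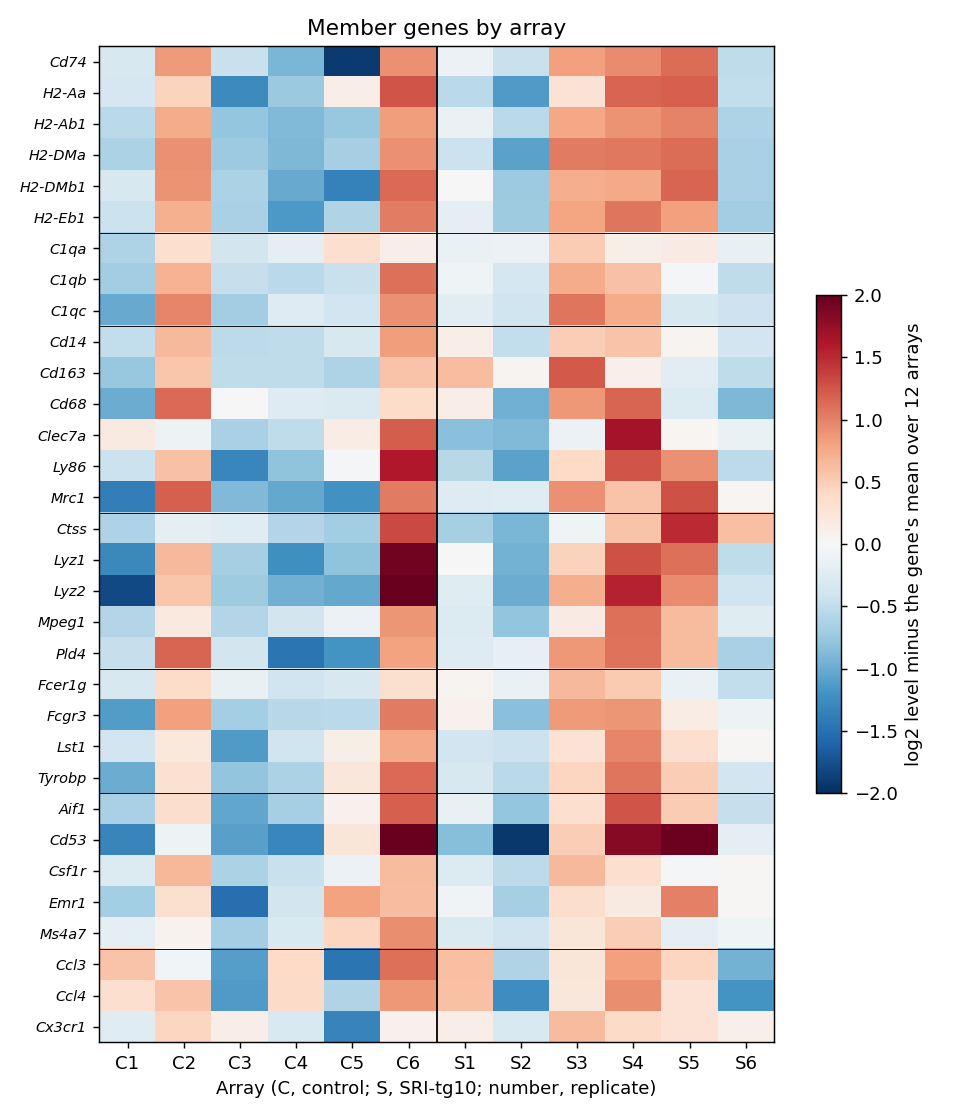
Rows are the 32 kept member genes grouped by role and columns the 12 arrays (C, control; S, SRI-tg10; number, replicate), coloured by the log2 level minus the gene's mean over the 12 arrays. The columns C2, C6, S3, S4 and S5 are red for most genes, and S5 is pale for C1qa, C1qb and C1qc.

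Title letter was compared as a possible batch. None of the 45 member probes differed between letter B and letter A at an adjusted p under 0.05, where 0.0928% of all kept probes did. At an unadjusted p under 0.05, 6 of 45 did (13.3%), where 16.8% of all kept probes did, a share of the members that is near the background. These were Cd53 (1.59 ± 0.61, higher under letter B), Ctss (0.91 ± 0.36), Clec7a (0.81 ± 0.36), Emr1 (0.75 ± 0.33), Mpeg1 (0.62 ± 0.28) and Lst1 (0.61 ± 0.26). By their other kept probe, Clec7a differed by 0.49 ± 0.37 (unadjusted p = 0.209, limma) and Emr1 by 0.13 ± 0.26 (unadjusted p = 0.62, limma). In direction, 36 of the 45 member probes were higher under letter B, where 8451 of the 18315 kept probes were. The median difference was 0.22 over the 32 genes, 26 of them higher, beside −0.026 over all kept probes. Here too the genes do not vary independently of each other.

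Most of the lymphocyte genes named here were high in the same mice. Of 17 B cell markers, 11 were kept, 8 of them with a higher mean in SRI-tg10 mice (median difference 0.28) and none passing the test, and their summed linear level ranged from 834 to 25760 in controls and from 826 to 36610 in SRI-tg10 mice. Igh-6, an immunoglobulin heavy chain gene with the highest level of the list, made up between 34.4% and 87.7% of that sum. It ran from 8.48 through 11.51 to 14.27 in controls and from 8.21 through 10.45 to 14.90 in SRI-tg10 mice, with a difference of −0.83 ± 1.11. Igh-6 did not follow the 5 mice, since Control replicate 1 was at 13.51 and Control replicate 2 at 10.86. The B cell gene Ms4a1 was not kept. Cd79b, a signalling chain of the B cell receptor, ran from 6.49 through 8.59 to 11.05 in controls and from 6.16 through 8.83 to 11.13 in SRI-tg10 mice. It was above 9.8 in the 5 mice named above and at 8.82 or below in the other 7. Faim3, a receptor for IgM, was at 9.94 or above in the same 5 mice and at 9.00 or below in the others. All 11 kept of 20 T cell markers had a higher mean in SRI-tg10 mice (median difference 0.74), none passing the test. They summed to between 332 and 2511 in controls and between 417 and 6382 in SRI-tg10 mice, highest in SRI-tg10 replicate 5, while Cd4, Cd8a and Trac were not kept. By symbol, 17 of the 20 T cell names, 15 of the 17 B cell names and 11 of the 12 neutrophil names had a probe. A name that was not kept may therefore have had no probe on the array. Cd3d, a chain of the T cell receptor complex, was at 8.03 or above in the same 5 mice and at 6.44 or below in the others. The mean levels of the kept markers spanned 3.46 log2 units over the 12 mice for B cells and 3.95 for T cells, beside 2.00 for the 6 class II genes. Of 12 neutrophil markers, 9 were not kept, S100a9, Ngp and Ly6g among them. Camp and Mmp9 were detected on 11 arrays each and S100a8 on 6. Taken relative to each gene's own mean, these kept markers were on average highest in Control replicate 6 (1.04) and SRI-tg10 replicate 4 (1.02). They were below 0 in Control replicate 2 (−0.26) and SRI-tg10 replicate 5 (−0.33). The erythroid genes Hbb-b1, Hba-a1 and Alas2 summed to between 7936 and 55390 in controls, highest in Control replicate 5, and to between 6179 and 50010 in SRI-tg10 mice. No marker of the 13 other cell types listed passed the test between the groups. At an unadjusted p under 0.05 there were 2 of the 7 beta cell markers and 1 of the 7 kept endothelial markers (limma), where 4.26% of all kept probes were. These were G6pc2 (−0.45 ± 0.14, SE), Iapp (−0.37 ± 0.15) and Eltd1 (−0.43 ± 0.15), all lower in SRI-tg10 mice. The part of lymphocytes in the levels of the class II genes and of Cd53 was not tested.

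**Figure D5:**
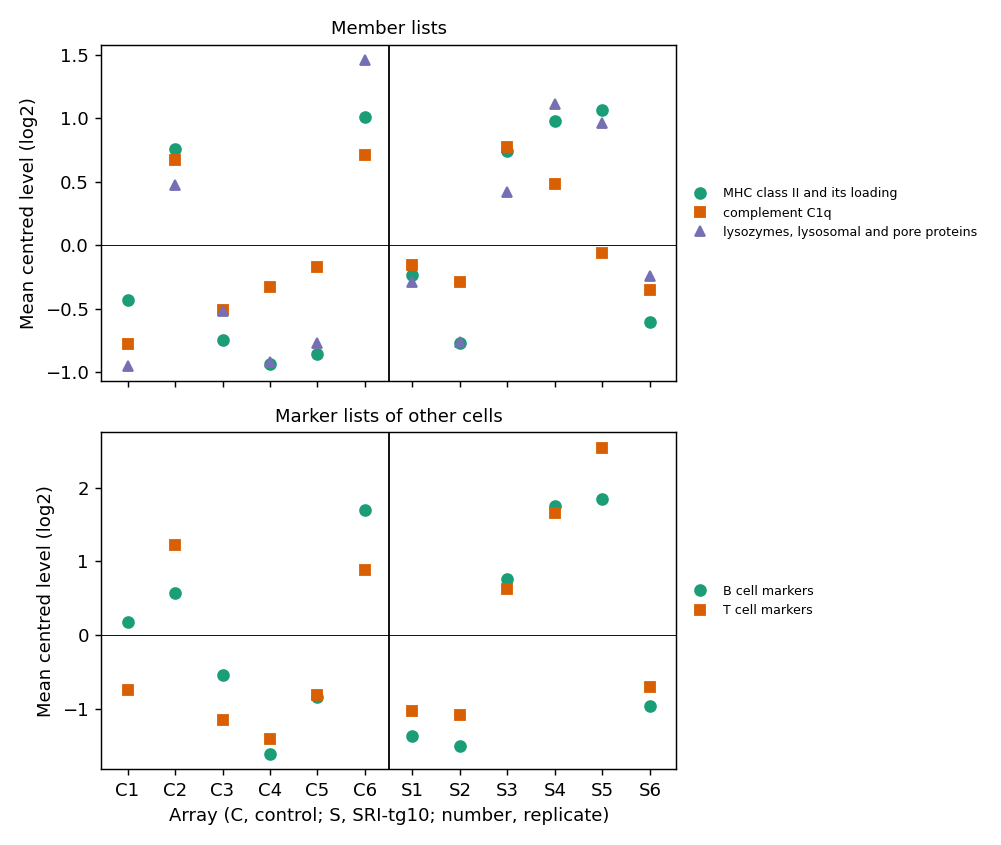
For each array (horizontal axis; C, control; S, SRI-tg10) the mean over a list of genes of the log2 level minus each gene's own mean is plotted, for 3 member lists (top) and 2 marker lists of other cells (bottom). Class II, B cell and T cell lists are above 0 in C2, C6, S3, S4 and S5, and the B cell list is above 0 in C1 as well (0.18).

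Among genes that are not members, those most like H2-Aa across the 12 arrays were B2m (the light chain of MHC class I), Klhl6, Cxcl16, Cytip and Acss1, with Pearson r from 0.96 to 0.97. Those most like C1qb were Ms4a6d, Ccl9, 5430435G22Rik, Amica1 and Nkg7, with r from 0.90 to 0.94. They are the highest of 12615 genes searched, and since the mice lie at separate levels these r values describe mainly which mice were high.

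Correlations of 8 fixed pairs of genes were examined in the same way. In every pair at least 1 gene placed the mice at separate levels, by a rule set after the values were seen (a gap of over 25% of the range with at least 3 mice on each side), so no correlation over all 12 is given and each was computed within the larger set of mice. No pair passed after adjustment over the 8. Lyz2 and C1qb had r = 0.85 and rho = 0.62 over 8 mice (exact permutation p = 0.00739 and 0.115, two-sided, adjusted 0.0591 and 0.23), with r = 0.54 without the 2 mice farthest from the median. H2-Aa and Cd79b had r = 0.71 and rho = 0.70 over 9 mice (exact permutation p = 0.0349 and 0.0433, adjusted 0.14 and 0.173). C1qb and H2-Aa had r = 0.46 and rho = 0.19 over 8 mice (exact permutation p = 0.274 and 0.665, adjusted 0.365 and 0.76), and r turned to −0.37 without the 2 farthest mice, SRI-tg10 replicates 1 and 5. Within a single title letter the sets are too small for a correlation.

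Other genes of the same pathways did not separate the groups either. Of 20 regulators of class II and genes of antigen processing, 17 were kept, with 9 higher, 8 lower, a median difference of 0.028 and none passing. The 3 with the smallest p were Nfyb, a subunit of the factor that binds the Y box (−0.20 ± 0.12), H2-DMb2, the second DM beta chain (0.52 ± 0.50), and Ifi30, a lysosomal thiol reductase (0.22 ± 0.23). Of 18 myeloid transcription and growth factors, 11 were kept, 8 higher and none passing. Csf1, the growth factor read by Csf1r, ran from 4.88 through 5.79 to 6.80 in controls and from 6.23 through 6.49 to 7.15 in SRI-tg10 mice. It differed by 0.81 ± 0.29 (unadjusted p = 0.0162, adjusted p = 0.922, limma), with the 2 groups overlapping in Control replicates 2 and 6. Spi1, the myeloid factor PU.1, differed by 0.49 ± 0.32 and Batf3, a factor of classical dendritic cells, by 0.41 ± 0.34. Of 30 other myeloid surface and signalling genes, 18 were kept and 16 were higher with none passing, and the smallest p belonged to Sirpa, the receptor for the CD47 signal (0.40 ± 0.17), Myd88 (0.22 ± 0.12) and Laptm5 (0.89 ± 0.56). Of 20 tissue and lipid-handling macrophage genes, 12 were kept, with 8 higher and none passing; Pf4 differed by 0.86 ± 0.40, Tgfbi by 0.43 ± 0.35 and Folr2 by 0.56 ± 0.47. All 6 kept of 19 inflammatory cytokines and chemokines had a higher mean and none passed, led by Ccl5 (1.65 ± 0.81), Arg1 (0.23 ± 0.16) and Cxcl9 (0.90 ± 0.67). Ccl5 was at 8.68 or above in the 5 mice that were high for class II. Il6, Tnf, Il10, Ccl2 and Nos2 were not kept.

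The authors' deposited table of fold changes holds 52 of the member probes, and none of them has a p-value under 0.05, with the lowest adjusted p at 0.855. The table does not state its direction, but its log2 fold change for Sri is 4.98, and Sri was higher in SRI-tg10 mice on the arrays, so positive values are read as higher in SRI-tg10 mice. For the 32 genes the median log2 fold change in the authors' deposited table is −0.033, with 14 above 0, where the fit of the 12 arrays gave 29. With all 32 genes retained, the fit without SRI-tg10 replicate 4 gave 24 and a median of 0.11. Over all probes in both, the authors' values had r = 0.81 with the fit of the 12 arrays and 0.90 with that fit. Which arrays the authors used is not stated, and the cause of the gap was not tested. Mrc1 is at 0.37 in the authors' deposited table, Cd74 at 0.087, H2-Aa at −0.18, C1qb at −0.12 and Ccl4 at −0.57.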

How the data were processed

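Total RNA of islets from 12 mice was read on Illumina bead arrays. Probe intensities and detection p-values were deposited by the authors, not normalized, and exported with GenomeStudio per the submitters' processing notes. The authors' deposited table gives log2 fold changes, a t score and p-values per probe; its model, direction and input arrays are not given in the sources, and its values are printed only where it is named.

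Intensities were background-corrected and quantile-normalized with neqc in limma 3.58.1 (R 4.3.3; offset 16, negative controls inferred from the deposited detection p-values). Probes detected at p under 0.05 on at least 6 of 12 arrays were kept, and SRI-tg10 minus control was fitted over all of them (lmFit and eBayes, Benjamini-Hochberg over 18315 probes, threshold 0.05), as were title letter and its interaction with group. Error values are SE or SD as stated. Bead arrays give no counts, and 6 arrays a group limit the precision. Permutation tests used SciPy 1.17.1. The fit was tested on simulated data. Members, lists and tests were chosen with earlier results of these data known. Named genes are all members, up to 3 per pathway list by smallest p, up to 3 per marker list by level, and the 5 most like H2-Aa and C1qb. Some other genes were named after their values were seen. These are undetected markers, erythroid genes, the kept dendritic cell and neutrophil markers, and the beta cell and endothelial markers with an unadjusted p under 0.05 (limma). Gene symbols are those of the array and the authors' deposited table. Alternatives tried were no background correction, common scaling, looser and stricter detection filters, title letter as a block, array weights and leaving out each array.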

Additional observations from a re-analysis of the deposited data

Results flagged for a closer look

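In 32 member genes and 2 groups, 64 sets of 6 arrays were examined for a single array far from the others, by Dixon's criterion (the gap to the nearest array as a share of the group's range). Chance flags about 1 set in 20. Ctss stood out in the controls, where Control replicate 6 was at 7.62 and the next array at 6.11, a gap of 0.744 of the range. Clec7a stood out in the SRI-tg10 mice, where SRI-tg10 replicate 4 was at 7.66 and the next array at 6.03, a gap of 0.640 of the range. No member's difference between the groups differed by title letter in the test of the interaction.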

How the results depend on the processing

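The number of member probes past the threshold was 0 for the group comparison under no background correction, 75th percentile scaling, both detection filters, the title letter as a block, array weights and each left-out array. The median difference of the members stayed above 0 in all of these, at 0.15 with no background correction and 0.28 with 75th percentile scaling, and ranged from 0.10 to 0.47 on leaving out 1 array. The class II median was 0.25 with array weights and lay between 0.23 and 0.64 with any single array left out. The members' median SD moved to 0.49 with no background correction, where that of all kept probes also fell. Of 595 recomputed differences of single members, 43 changed sign, in 13 of 32 genes, none of which had passed the threshold, and the cause was not tested. With array weights Ccl3 was at −0.23 and Cd68 at −0.0079. Leaving out 1 array at a time, the differences ranged from −0.019 to 0.35 for C1qb, −0.049 to 0.36 for C1qc, −0.093 to 0.42 for Ccl3, −0.38 to 0.096 for Ccl4, −0.22 to 0.24 for Cd68, −0.44 to 0.15 for Clec7a, −0.068 to 0.19 for Csf1r, −0.0024 to 0.47 for Emr1, −0.070 to 0.44 for H2-Aa, −0.11 to 0.47 for Ly86, −0.0061 to 0.39 for Mpeg1 and −0.23 to 0.094 for Ms4a7. Those of Cd74 ranged from 0.28 to 0.85, of Lyz2 from 0.22 to 1.06 and of Pld4 from 0.26 to 0.79, with no change of sign. Without Control replicate 5 and SRI-tg10 replicate 4 together, an alternative added after seeing the data, Ccl3 was at −0.24, C1qb at −0.064, C1qc at −0.046, Csf1r at −0.022, Mpeg1 at −0.011, H2-Aa at −0.0032, Cd14 at −0.035, Cd68 at −0.28 and Ly86 at −0.093. Lyz2 and C1qb correlated at 0.96 over 8 arrays once values were centred within letter and group (adjusted permutation p = 0.00752). On that scale the 8 arrays above the gap in H2-Aa gave 0.94 for H2-Aa with Cd74 (adjusted permutation p = 0.00357). They gave 0.91 for H2-Aa with Cd79b (adjusted permutation p = 0.0143). Centred values within a letter and group depend on each other, so these permutation p-values are not exact. On the reported scale another set of 7 arrays gave −0.59 for H2-Aa with Cd74 (adjusted exact permutation p = 0.307). Without the 2 mice farthest from the median, Control replicates 3 and 5, it was 0.30. For H2-Aa with Cd79b, 9 arrays gave 0.71 on the reported scale. The cause of the differences between the scales was not tested. The series' processed value table was not run as an alternative, because 10 of its 12 columns have the rank order of another array than the one they name. No paired analysis was possible because the labels number the mice 1 to 12 with no number shared between the groups, and the replicate numbers used here only name arrays. Nothing can be said of the levels of the 5 members that were not kept beyond how many arrays detected them.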
